A study of Mus musculus with 20 samples.

Results

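Neutrophils sorted from the liver of tumor mice were set against neutrophils sorted from the blood of sham mice, the healthy reference of the study, across all genes. The comparison takes the 4 liver libraries and the 4 sham blood libraries of the 20 RNA-seq libraries in the series, chosen by the tissue and treatment codes in their labels. The 4 libraries of tumor mouse blood are set beside them, because they share the tumor with the liver libraries and the tissue with the sham libraries.

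The mice of all 3 groups carry the strain label C57BL/6. The study used male and female animals, but which sex gave each library is not stated. Tumor mice carried KPC cells, a pancreatic ductal adenocarcinoma (PDAC) line that arose in C57BL/6 mice with engineered alleles and Pdx1-Cre, which makes Cre in the pancreas. The study put these cells into the peritoneal cavity or into the pancreas itself, and the sources used here do not state which route the sequenced mice received. Sham mice received saline instead of tumor cells, and tissue was taken 10 days after inoculation. Blood was drawn from the heart before perfusion and had no digestion step. The liver came from the perfused animal and was strained, digested with collagenase and DNAse in a warm incubator and passed through Percoll. In every group live single cells with high CD11b and high Ly6G were sorted, and RNA was amplified with SMART-Seq v4. Liver and sham blood therefore differ in tissue, in tumor, in perfusion and in digestion at once, and these cannot be told apart in this comparison. The sorting methods took blood and organs from the same animals, but whether libraries of the same number share a mouse is not stated. Each p-value therefore rests on the spread between libraries within groups, estimated over all 20 of the series, which may be partly technical.

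Neutrophils leave the bone marrow as short-lived cells filled with granules made in advance, and circulate until chemokines such as those that bind CXCR2 draw them into tissue. The liver holds a large pool of them in its sinusoids, the narrow vessels lined by endothelium and patrolled by Kupffer cells, the resident macrophages. A neutrophil that leaves the circulation can switch on immediate early transcription factors and NF-kB, the transcription factor family behind many inflammatory genes, and can then make chemokines and cytokines of its own.

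The liver libraries held 49342620 to 54094891 counts and the sham blood libraries 48336758 to 51176440, and 16678 to 17901 genes had a count in liver against 15765 to 17122 in sham blood. Transcripts encoded by the mitochondrial genome made up 0.216% to 0.417% of the counts in liver and 0.0625% to 0.134% in sham blood, and the 10 most abundant genes took 9.46% to 12.6% in liver and 6.83% to 7.55% in sham blood. Across 11581 genes, log2 CPM (counts scaled to a common library size by TMM, a trimmed mean of ratios) correlated at 0.907 to 0.927 between liver libraries, at 0.897 to 0.922 between sham blood libraries and at 0.734 to 0.83 across both groups. These correlations are across genes, which are not independent replicates.

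The sorted markers were present in all libraries. Ly6g, the antigen of the sort, had 154, 149, 145 and 66.0 CPM in liver and 33.3, 86.3, 61.3 and 43.9 CPM in sham blood (log2 difference of 1.2, SE 0.48, adjusted p = 0.156). Itgam, which encodes CD11b, had 377, 442, 397 and 351 CPM in liver and 352, 302, 364 and 272 CPM in sham blood (log2 difference of 0.28, adjusted p = 0.291). S100a8, which encodes a subunit of the neutrophil protein calprotectin, had 5974, 7639, 7690 and 3849 CPM in liver against 3651, 4232, 5218 and 4402 CPM in sham blood (adjusted p = 0.332), with overlap between the groups. Csf3r, another neutrophil marker, had 4259, 5592, 4341 and 3566 CPM in liver and 10270, 6619, 8169 and 7193 CPM in sham blood, without overlap. It did not pass the test (log2 difference of -0.86, adjusted p = 0.0667), but passed in 5 of 14 alternative fits. Neutrophil transcripts were thus present in every library of both groups.

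Of 28762 genes tested, 680 were called higher and 208 lower in liver than in sham blood, at an adjusted p under 0.05 and a log2 difference of at least 2 in size, which is 2.36% and 0.723% of the genes. Without the limit on size, 1241 genes (4.31%) were higher and 776 (2.7%) lower, and these shares are the background for the gene groups below. A gene said below to lose its call no longer passed this adjusted p, whether or not it had passed the limit on size. That background includes many genes with few counts, as 11581 of the genes tested averaged at least 1 CPM over the 8 libraries. Shares among those 11581 alone were not taken. The number called lower rested more on single libraries, and was 134 without liver replicate 3 and 122 without liver replicate 4. The 4 liver libraries lay outside the range of the 4 sham blood libraries for 515 of the 680 genes called higher and 200 of the 208 called lower, and over all genes such separation was found for 7.8% above and 7.67% below. No sham blood library had a count for 152 of the genes called higher, and no liver library had one for 32 of those called lower. In bulk RNA, fewer cells of a type and less RNA per cell cannot be told apart.

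**Figure D1:**
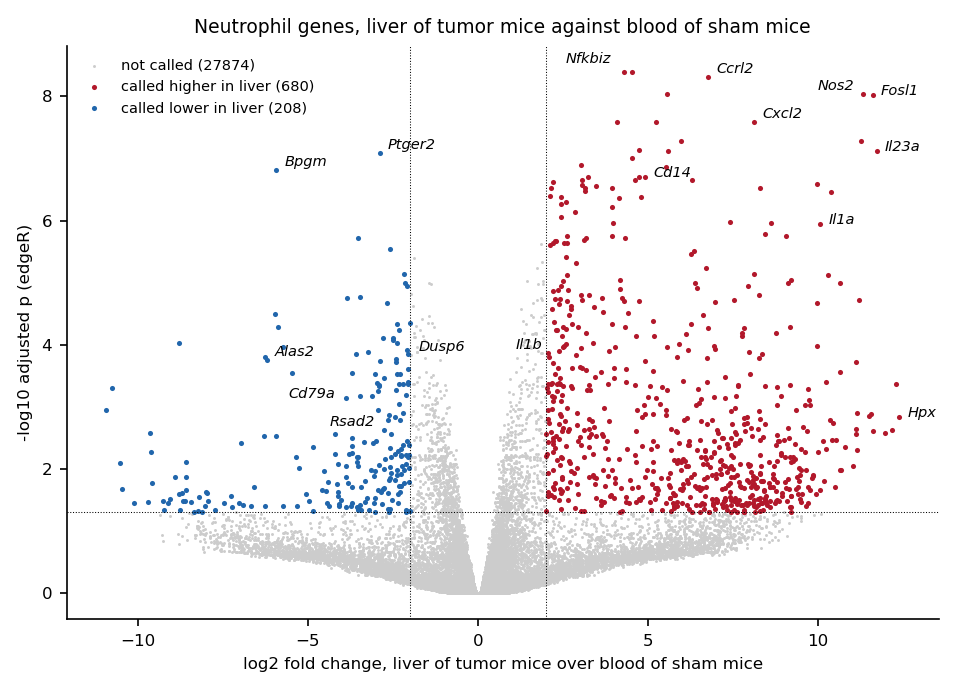
Log2 difference of liver over sham blood (x axis) against -log10 of the adjusted p (y axis) for the 28762 genes tested, each point a gene. Of the coloured points, 680 lie to the right and 208 to the left of the fold limits.

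The change can also be read in steps that share libraries with the main comparison. Against tumor mouse blood, liver had 1146 genes higher (3.98%) and 345 lower (1.2%) at an adjusted p under 0.05. Tumor mouse blood had 468 genes higher (1.63%) and 486 lower (1.69%) than sham blood. Values for the steps are given beside the members below, as the liver libraries and the sham libraries each enter more than a single comparison.

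The largest rises that separated the groups included inducible inflammatory genes and genes made by hepatocytes. Fosl1, which encodes the AP-1 subunit FRA-1 (chr19:5447547-5455946, mm10), had 117, 198, 141 and 196 CPM in liver, against 0, 0.0581, 0.0390 and 0.0958 CPM in sham blood. The groups did not overlap, and the log2 difference was 11.61 (SE 0.81, adjusted p = 9.46e-09). Il23a, the p19 subunit of interleukin-23 (chr10:128296139-128298752), had 46.9, 96.4, 241 and 193 CPM in liver and 0.0452, 0.0388, 0.0195 and 0.0575 CPM in sham blood (log2 difference of 11.73, SE 0.96, adjusted p = 7.52e-08). Both were also near 0 in tumor mouse blood, with at most 0.375 CPM for Fosl1 and 0.0221 CPM for Il23a, and neither passed the test between tumor mouse blood and sham blood (adjusted p = 0.432 for Fosl1 and 0.726 for Il23a).

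Il1a, the alarmin interleukin-1 alpha, had 201, 382, 1044 and 843 CPM in liver, 0.0432 to 1.14 CPM in tumor mouse blood and 0.136, 0.388, 1.66 and 0.0767 CPM in sham blood. Liver was higher than either blood group, by log2 differences of 10.04 over tumor mouse blood (adjusted p = 1.16e-06) and 10.08 over sham blood (SE 1.02, adjusted p = 1.13e-06). Cxcl3, a ligand of the neutrophil chemokine receptor CXCR2, had 90.3, 180, 297 and 433 CPM in liver, 0.551 to 6.37 CPM in tumor mouse blood and 0, 0.310, 0.507 and 0.153 CPM in sham blood. No sham blood library reached the liver level of Cxcl3 (log2 difference of 9.97 over sham blood, SE 0.90, adjusted p = 2.54e-07). Emp1, a membrane protein of the epithelial membrane protein family, had 18.2, 41.7, 80.1 and 98.4 CPM in liver, 0.772 to 11.7 CPM in tumor mouse blood and 0 to 0.0780 CPM in sham blood (log2 difference of 10.64 over sham blood, adjusted p = 1.02e-05). For each of these the liver libraries lay above every blood library of either kind.

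In other rises, blood of tumor mice stood beside their liver. Nos2, the inducible nitric oxide synthase (chr11:78920787-78960254), had 56.8, 42.9, 109 and 126 CPM in liver, 77.9, 34.6, 84.5 and 155 CPM in tumor mouse blood and 0, 0.0775, 0.0195 and 0.0192 CPM in sham blood. Liver and tumor mouse blood overlapped (log2 difference of -0.07, adjusted p = 1) and both stood above sham blood, liver by a log2 difference of 11.34 (SE 0.78, adjusted p = 9.03e-09) and tumor mouse blood by 11.40 (adjusted p = 3.3e-08). Lipg, the secreted endothelial lipase, had 115, 23.6, 102 and 101 CPM in liver and 36.1 to 202 CPM in tumor mouse blood, against at most 0.116 CPM in sham blood (log2 difference of liver over sham blood of 10.40, SE 0.97, adjusted p = 3.48e-07). Lipg did not pass the test between liver and tumor mouse blood (log2 difference of -0.70, adjusted p = 0.548).

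Arg1, which breaks down arginine (chr10:24915221-24927484), and C4b, a complement component, took positions between these. Arg1 had 209, 946, 970 and 703 CPM in liver, 24.3, 3.80, 102 and 110 CPM in tumor mouse blood and 0.407, 1.36, 0.956 and 0.0575 CPM in sham blood. Its groups did not overlap at either step, with log2 differences of 3.56 for liver over tumor mouse blood (adjusted p = 0.0273) and 6.42 for tumor mouse blood over sham blood (adjusted p = 0.0014), which together made 9.98 for liver over sham blood (SE 1.27, adjusted p = 2.16e-05). C4b had 52.7, 26.8, 58.9 and 82.6 CPM in liver, 5.97 to 16.9 CPM in tumor mouse blood and 0 to 0.0388 CPM in sham blood (log2 difference of liver over sham blood of 11.27, adjusted p = 5.17e-08). Ednrb, the endothelin receptor B, had 29.2, 44.4, 48.3 and 36.0 CPM in liver and 1.87 to 8.61 CPM in tumor mouse blood, against 3 counts in the 4 sham blood libraries together. Its ratio of liver over sham blood was 2580 (exact 95% interval 881 to 12500, which covers counting error only). With the spread between libraries counted, the log2 difference was 11.15 (SE 2.04, adjusted p = 0.00124). Ednrb did not pass the test between liver and tumor mouse blood (log2 difference of 2.83, adjusted p = 0.233).

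For genes with no count in sham blood, the fold is given as a lower bound. Hpx, the plasma heme carrier hemopexin, had 21.4, 10.7, 8.69 and 11.2 CPM in liver, 0 to 0.142 CPM in tumor mouse blood and no count in sham blood, and was at least 889-fold higher in liver against a floor of 3 counts over the sham group. Mat1a, the methionine adenosyltransferase of the liver, was at least 850-fold higher with 12.4, 10.4, 1.5 and 24.6 CPM in liver, and Serpina3k, a secreted serpin, at least 768-fold higher with 5.87, 8.29, 5.36 and 25.4 CPM in liver. The fibrinogen genes Fga and Fgg had 13.3 to 25.3 CPM and 6.75 to 21.6 CPM in liver, no count in tumor mouse blood and 1 count each in sham blood, with ratios of 3610 for Fga (interval 648 to 143000) and 2410 for Fgg (interval 432 to 95200). These are products of hepatocytes, and the levels of a fixed list of hepatocyte markers are given beside them below.

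**Figure D2:**
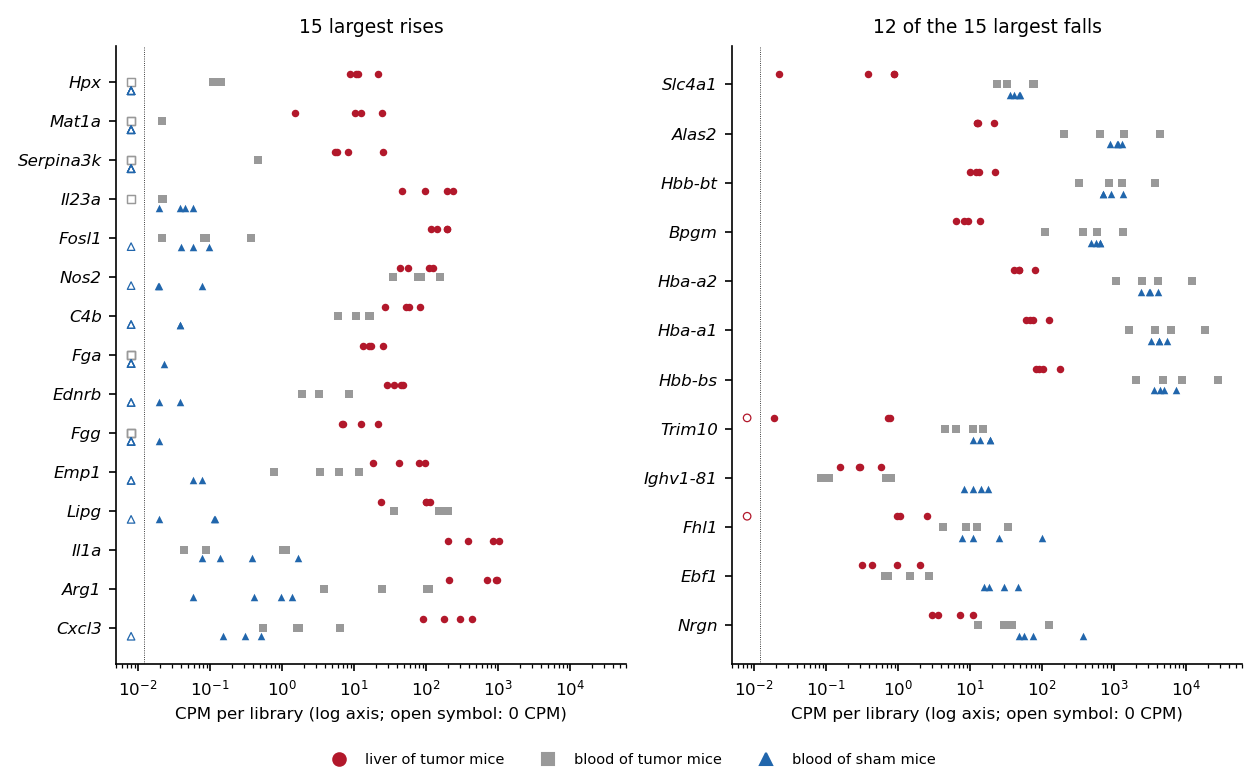
CPM per library (log axis, open symbols at the left edge for 0) of the 15 largest rises and 12 of the 15 largest falls of liver against sham blood, with liver drawn first, then tumor mouse blood and sham blood. Fosl1 and Il23a sit above 46 CPM in every liver library and under 0.4 CPM in every blood library, while Nos2 overlaps between liver and tumor mouse blood.

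Promoter sequences from 250 bases before to 50 bases after the gene start were taken from RefSeq (GRCm38.p6, the assembly also named mm10) for genes among the largest changes. Those of Il1a, Cxcl3 and Emp1 are shown because, among the largest rises, they were the ones found to hold the AP-1 or NF-kB letters. Capitals mark matches to TGANTCA, the AP-1 letters, or GGANTTTCC, the NF-kB (kB) letters, searched on both strands. The windows are chr2:129309923-129310222 on the minus strand for Il1a, chr5:90785851-90786150 on the plus strand for Cxcl3 and chr6:135362681-135362980 on the plus strand for Emp1.
Il1a: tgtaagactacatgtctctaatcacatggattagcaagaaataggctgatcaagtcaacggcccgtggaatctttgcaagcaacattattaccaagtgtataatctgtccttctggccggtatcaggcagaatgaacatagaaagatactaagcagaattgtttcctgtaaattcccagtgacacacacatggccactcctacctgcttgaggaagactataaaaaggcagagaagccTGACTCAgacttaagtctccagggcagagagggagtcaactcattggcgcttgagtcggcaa
Cxcl3: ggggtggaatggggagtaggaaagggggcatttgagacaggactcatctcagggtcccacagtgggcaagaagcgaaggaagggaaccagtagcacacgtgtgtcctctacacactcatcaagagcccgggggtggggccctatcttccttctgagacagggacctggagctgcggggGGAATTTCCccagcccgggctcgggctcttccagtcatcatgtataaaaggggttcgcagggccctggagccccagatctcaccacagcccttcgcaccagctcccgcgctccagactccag
Emp1: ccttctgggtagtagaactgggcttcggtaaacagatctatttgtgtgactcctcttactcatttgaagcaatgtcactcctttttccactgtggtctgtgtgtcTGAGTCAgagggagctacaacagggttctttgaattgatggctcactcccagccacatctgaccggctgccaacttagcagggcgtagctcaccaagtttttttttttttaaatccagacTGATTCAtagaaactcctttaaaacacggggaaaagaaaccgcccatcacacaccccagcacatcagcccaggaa
The match in Il1a starts 12 bases before the gene start, that in Cxcl3 72 bases before, and those in Emp1 145 and 25 bases before. Of the 15 largest rises, 7 had a promoter in the table, of which 2 held the AP-1 letters and 1 the kB letters. Hpx, Fga, Ednrb and Fgg held neither. Of the 15 largest falls, 10 had a promoter, of which likewise 2 held the AP-1 letters and 1 the kB letters.

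Over all genes called higher, 467 had a promoter in the table, and 65 of them (13.9%) held the AP-1 letters, against 7.93% of all 27025 promoters and 6.31% of those of genes tested. The kB letters were found in 21 (4.5%), against 1.23% of all promoters and 1.4% of those of genes tested. Of the 122 promoters of genes called lower, 12 (9.84%) held the AP-1 letters and 1 (0.82%) the kB letters. GAAANNGAA, the letters of the interferon-stimulated response element (ISRE), stood in 19 promoters of genes called lower (15.6%) and in 7.92% of those called higher, against 8.57% of all. The letters for CRE, TGACGTCA, were in 3.64% of the promoters of genes called higher and in 1.88% of all promoters. The other letters searched were TTCNNGAA (heat shock element, HSE), in 9.21% of promoters of genes called higher and 8.4% of all, ACTTCCTG (ETS), in 4.93% and 3.38%, TTGCGCAA (C/EBP), in 0.428% and 0.185%, and CATATTAGG (serum response element, SRE), in 0.214% and 0.13%. A match is a description of the letters in this window and not a site shown to be bound.

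Genes of immediate early transcription, which are induced within minutes by many stimuli, were mostly higher in liver. Liver cells, unlike blood cells, went through a warm digestion before the sort, and its part in these rises was not tested. The same holds for the NF-kB, chemokine and cytokine genes below. Of 20 tested members, 17 were higher in liver and none lower, against 4.31% and 2.7% of all genes, with a median log2 difference of 2.37, where the median over all genes was 0. Their summed level was 38820 to 55770 CPM in liver, 8500 to 11850 CPM in tumor mouse blood and 14430 to 20850 CPM in sham blood, so that the liver libraries stood apart from both. Egr1, a zinc finger factor, had 3745, 4639, 3330 and 2548 CPM in liver, 1.77 to 74.2 CPM in tumor mouse blood and 18.2, 21.7, 20.9 and 22 CPM in sham blood. No sham blood library reached the liver level of Egr1 (log2 difference of 7.43 over sham blood, SE 0.75, adjusted p = 1.07e-06). Nr4a1, an orphan nuclear receptor, had 3460, 5424, 4910 and 3962 CPM in liver, 66.6 to 132 CPM in tumor mouse blood and 193, 302, 254 and 284 CPM in sham blood. Nr4a1 was higher in each liver library than in any sham blood library (log2 difference of 4.10, SE 0.31, adjusted p = 2.56e-08).

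The related receptors Nr4a2 and Nr4a3 rose by log2 differences of 8.61 and 6.42. Junb, an AP-1 subunit, was already abundant in sham blood and rose by less, with 11300, 13710, 13960 and 9838 CPM in liver and 6052, 4874, 4783 and 4631 CPM in sham blood (log2 difference of 1.26, adjusted p = 0.000515). Fos rose by 1.23 on the log2 scale (adjusted p = 0.0336), a call that was lost when liver replicate 1 or 2 or sham blood replicate 2, 3 or 4 was left out, and with lane as a term. Several members were lower in tumor mouse blood than in sham blood, 5 of 20 in all. Fosb, for example, had 216, 465, 268 and 375 CPM in liver, 0.0882 to 1.16 CPM in tumor mouse blood and 41.1, 11.2, 7.83 and 6.59 CPM in sham blood, with log2 differences of 4.31 for liver over sham blood (adjusted p = 5.24e-05) and -4.62 for tumor mouse blood over sham blood (adjusted p = 0.000106). Atf3, a stress-induced factor, followed the same order, with 608 to 855 CPM in liver, 9.06 to 14.5 CPM in tumor mouse blood and 106 to 274 CPM in sham blood.

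Of 20 NF-kB subunits and inhibitors, 10 were higher in liver and none lower, with a median log2 difference of 1.11. The members that rose most were feedback inhibitors and regulators of the pathway. Nfkbiz, a nuclear co-factor of NF-kB (chr16:55811375-55838899), had 2213, 2766, 3874 and 3661 CPM in liver, 98.3 to 139 CPM in tumor mouse blood and 186, 127, 178 and 143 CPM in sham blood, with no overlap (log2 difference of 4.30, SE 0.27, adjusted p = 3.97e-09). Tnfaip3, which encodes the inhibitor A20, had 891, 1623, 2485 and 2458 CPM in liver and 110, 54.8, 69.5 and 47.7 CPM in sham blood. Tnfaip3 did not overlap between liver and sham blood (log2 difference of 4.73, adjusted p = 7.19e-08). Nfkbia, the inhibitor IkB alpha, had 2258, 3658, 7464 and 6083 CPM in liver and 309, 393, 286 and 276 CPM in sham blood. Every liver library exceeded every sham blood library for Nfkbia (log2 difference of 3.94, SE 0.38, adjusted p = 5.97e-07).

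Among 12 MAP kinase phosphatases, which switch off stress and growth kinases, 4 were higher and 1 lower. Dusp1 had 13690, 18900, 20780 and 15170 CPM in liver and 8627, 7731, 6384 and 5377 CPM in sham blood (log2 difference of 1.28, adjusted p = 0.00612), and Dusp2 and Dusp5 rose by 2.41 and 2.89. Dusp6 went the other way, with 167, 162, 98.0 and 71.4 CPM in liver against 698, 423, 380 and 470 CPM in sham blood (log2 difference of -1.98, adjusted p = 0.000149).

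Several chemokines rose in liver, and CXCR2 ligands were among them. Of 18 CXC chemokines and receptors 8 were higher and 2 lower, with a median log2 difference of 2.89, and their summed level was 11990 to 25160 CPM in liver, 3345 to 4345 CPM in tumor mouse blood and 2177 to 3641 CPM in sham blood. Cxcl2, a CXCR2 ligand that neutrophils themselves make (chr5:90903871-90905938), had 10140, 17000, 23020 and 23380 CPM in liver, 93.3 to 472 CPM in tumor mouse blood and 75.1, 70.3, 95.5 and 22.7 CPM in sham blood. The liver libraries lay far above all blood libraries, with log2 differences of 6.41 over tumor mouse blood and 8.12 over sham blood (SE 0.61, adjusted p = 2.56e-08). Cxcl1 had 35.9, 51.6, 94.4 and 114 CPM in liver, 0.0218 to 0.432 CPM in tumor mouse blood and 0.0192 to 0.252 CPM in sham blood (log2 difference of 9.11 over sham blood, adjusted p = 1.02e-05).

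The receptor for these ligands moved in the other direction. Cxcr2 had 1564, 1518, 1236 and 988 CPM in liver, 2802 to 4051 CPM in tumor mouse blood and 3251, 2015, 2781 and 1841 CPM in sham blood. No liver library reached a sham blood library, but the log2 difference was small at -0.90 (adjusted p = 0.0429), and the call was lost without liver replicate 2, 3 or 4 or without sham blood replicate 1 or 3. The other member that fell, the platelet chemokine Ppbp (log2 difference of -3.88, adjusted p = 0.0135), lost its call without liver replicate 4 or sham blood replicate 3, and is also a platelet marker. Cxcr4, the receptor that holds neutrophils in bone marrow, did not pass the test (log2 difference of -0.26, adjusted p = 0.569).

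Of 18 CC chemokines and receptors, 10 were higher and 1 lower, with a median log2 difference of 2.52. Ccl3, also called MIP-1 alpha, had 527, 568, 1024 and 868 CPM in liver, 2.92 to 10.5 CPM in tumor mouse blood and 51.8, 33.9, 17.6 and 25.8 CPM in sham blood. Ccl3 was higher in each liver library than in any sham blood library (log2 difference of 4.53 over sham blood, SE 0.38, adjusted p = 9.94e-08). It was lower in tumor mouse blood than in sham blood, by a log2 difference of -2.14 (adjusted p = 0.000662). Ccrl2, a receptor that binds chemerin and is induced by inflammation, had 1953, 3270, 4137 and 4307 CPM in liver, 8.31 to 36.9 CPM in tumor mouse blood and 46.9, 33.8, 25.5 and 19.2 CPM in sham blood. Ccrl2 was higher in each liver library than in any sham blood library (log2 difference of 6.77, SE 0.44, adjusted p = 4.94e-09). Ccl4 rose by 5.24 (adjusted p = 2.56e-08), and Ccl2, the monocyte chemoattractant, had 44.2, 194, 172 and 210 CPM in liver and 0.0226 to 0.853 CPM in sham blood (log2 difference of 8.12, adjusted p = 7.21e-06). The member that fell was Cx3cr1, a receptor that marks patrolling monocytes (log2 difference of -3.20, adjusted p = 0.0452), a call that was lost without liver replicate 2, 3 or 4 or without sham blood replicate 2, 3 or 4. Ccr2, the receptor for Ccl2 on monocytes, did not pass the test, with 578, 157, 106 and 70.7 CPM in liver and 21.1, 97.9, 155 and 315 CPM in sham blood (adjusted p = 0.817).

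Of 20 cytokines and growth factors, 11 were higher and 1 lower, and the median log2 difference of the list was 3.93. The member that was lower, Tnfsf14, lost its call without liver replicate 1 or 2 or sham blood replicate 1. Tnf had 213, 332, 1036 and 723 CPM in liver, 3.78 to 6.80 CPM in tumor mouse blood and 8.90, 15, 8.64 and 3.79 CPM in sham blood. No sham blood library reached the liver level of Tnf (log2 difference of 5.99, SE 0.47, adjusted p = 5.17e-08). Osm, the cytokine oncostatin M, had 3079, 2822, 2675 and 1588 CPM in liver, against 216, 112, 239 and 99.7 CPM in sham blood. Osm did not overlap between liver and sham blood (log2 difference of 3.93, adjusted p = 2.99e-07). Vegfa, the vascular growth factor, had 113, 277, 285 and 297 CPM in liver and 74.6, 43.8, 47.5 and 45.8 CPM in sham blood (log2 difference of 2.20, adjusted p = 1.37e-05). No blood library of either group had a count of Csf3, which encodes the granulopoietic factor G-CSF, while the liver libraries had 2.58, 6.75, 7.84 and 21.6 CPM, at least 651-fold above sham blood. Areg and Il10 had no count in sham blood either and were at least 475-fold and at least 284-fold higher in liver. The summed level of the list was 3927 to 5598 CPM in liver, 626 to 925 CPM in tumor mouse blood and 916 to 1476 CPM in sham blood.

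In the interleukin-1 family, 6 of 14 members were higher and none lower. Il1b, the main secreted ligand, was abundant in all groups and rose, with 13700, 17030, 21510 and 16490 CPM in liver, 1354 to 2910 CPM in tumor mouse blood and 4415, 2879, 5236 and 3585 CPM in sham blood (log2 difference of 2.09, SE 0.32, adjusted p = 0.00016). Il1r2, a decoy receptor that binds the ligand without signalling, had 2069, 4139, 8459 and 7829 CPM in liver, 1742 to 5719 CPM in tumor mouse blood and 1189, 469, 471 and 333 CPM in sham blood (log2 difference of 3.19, adjusted p = 0.00026). Il1b thus stood apart in liver while Il1r2 was raised in both tissues of tumor mice, with a log2 difference of 2.65 for tumor mouse blood over sham blood. The receptor antagonist Il1rn did not pass the test (log2 difference of 0.30, adjusted p = 0.564).

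**Figure D3:**
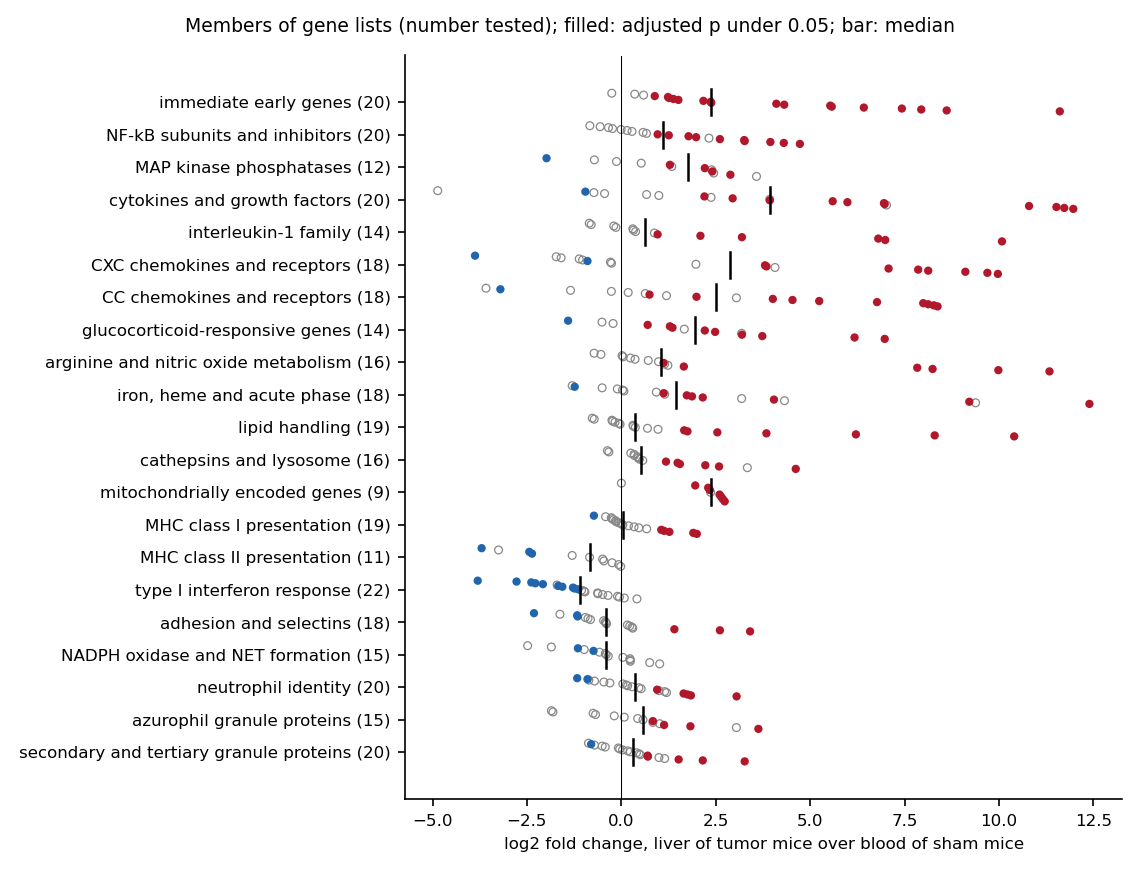
Log2 difference of liver over sham blood (x axis) for each tested member of 21 gene lists, filled where the adjusted p is under 0.05, with a bar at each list's median. Immediate early genes have 17 of 20 members filled on the right and the type I interferon list has 10 of 22 filled on the left.

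Receptors of innate sensing rose in part. Cd14, the co-receptor for bacterial lipopolysaccharide, had 4808, 6753, 11000 and 10890 CPM in liver, 672 to 1551 CPM in tumor mouse blood and 481, 158, 315 and 146 CPM in sham blood. The log2 difference was 4.93 (SE 0.43, adjusted p = 1.99e-07), of which tumor mouse blood over sham blood made up 1.90 (adjusted p = 0.00537). Of 17 Toll-like receptors and adaptors 3 were higher, with Tlr1 at 89.0, 52.2, 87.5 and 93.5 CPM in liver, 93.9 to 138 CPM in tumor mouse blood and 9.29, 18.1, 11.4 and 17.9 CPM in sham blood (log2 difference of 2.50, adjusted p = 9.24e-06). Trem1, a receptor that amplifies innate signals, had 3136, 4034, 4329 and 3993 CPM in liver, 403 to 514 CPM in tumor mouse blood and 670, 364, 528 and 308 CPM in sham blood. Trem1 did not overlap between liver and sham blood (log2 difference of 3.05, SE 0.27, adjusted p = 2.22e-07). Trem1 was among the 4 of 15 C-type lectin and Trem receptors that were higher, with Clec4e, Clec4n and Trem2, and Treml4 was the member that was lower (log2 difference of -1.64).

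Among 14 chemoattractant receptors 4 were higher and 3 lower, and the number higher fell to 2 without liver replicate 3 or sham blood replicate 4. Gpr84, a receptor for medium-chain fatty acids, had 22.8, 30.0, 57.0 and 42.5 CPM in liver and 3.19, 7.6, 2.83 and 4.62 CPM in sham blood (log2 difference of 3.06, adjusted p = 1.92e-05), and C3ar1, the receptor for complement C3a, rose by 5.16. Ptger2, a receptor for prostaglandin E2, fell, with 13.2, 17.1, 13.3 and 11.8 CPM in liver, 49.3 to 77.3 CPM in tumor mouse blood and 151, 96.9, 92.9 and 70.1 CPM in sham blood (log2 difference of -2.89, SE 0.24, adjusted p = 8.09e-08). C5ar2 fell by 1.65 on the log2 scale and S1pr1, through which lymphocytes leave tissue, by 2.28.

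The enzyme that starts prostaglandin synthesis moved opposite to that receptor. Ptgs2, the inducible cyclooxygenase, had 1709, 2328, 2791 and 2195 CPM in liver, 1.65 to 8.27 CPM in tumor mouse blood and 103, 82.8, 80.3 and 60.7 CPM in sham blood. It was higher in liver than in either blood group, by log2 differences of 9.11 over tumor mouse blood and 4.79 over sham blood (SE 0.45, adjusted p = 4.17e-07), and lower in tumor mouse blood than in sham blood by a log2 difference of -4.32 (adjusted p = 4.38e-06). Of 16 genes of prostaglandin and leukotriene synthesis, 4 were higher and 1 lower, and Ptgs1 and Alox5ap rose by 1.57 and 0.97. The member that was lower, the platelet lipoxygenase Alox12 (log2 difference of -3.53, adjusted p = 0.0464), lost its call without liver replicate 1, 2 or 4, without sham blood replicate 1, 3 or 4 and with lane as a term.

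Of 16 genes of arginine and nitric oxide metabolism 6 were higher and none lower, led by Nos2 and Arg1. Slc7a2, an arginine transporter, had 11.6, 27.0, 20.6 and 15.2 CPM in liver, 0 to 1.83 CPM in tumor mouse blood and 0 to 0.287 CPM in sham blood (log2 difference of 7.83, adjusted p = 0.00151). Odc1, which turns the product of Arg1 into polyamines, rose by 1.65, a call lost without liver replicate 4. In the list of iron, heme and acute phase genes, 7 of 18 were higher and 1 lower, and the number higher was 4 without liver replicate 3, sham blood replicate 3 or sham blood replicate 4. Saa3, an acute phase protein, had 204, 93.2, 270 and 416 CPM in liver, 14.5 to 263 CPM in tumor mouse blood and 0.181, 0.368, 0.722 and 0.364 CPM in sham blood. Saa3 was higher in each liver library than in any sham blood library (log2 difference of 9.21, adjusted p = 9.09e-06). Fth1, the ferritin heavy chain that stores iron, had 8918, 12780, 18590 and 20470 CPM in liver and 6791, 3594, 4250 and 3651 CPM in sham blood (log2 difference of 1.73, adjusted p = 0.000573), while Slc40a1, the iron exporter, fell by 1.24 on the log2 scale (adjusted p = 0.00879).

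Genes of lipid handling included 7 of 19 that were higher and none lower. Hilpda, an inhibitor of lipid droplet breakdown that hypoxia induces, had 154, 400, 374 and 701 CPM in liver, 1.68 to 10.8 CPM in tumor mouse blood and 2.78, 0.736, 0.566 and 1.13 CPM in sham blood. Every liver library exceeded every sham blood library for Hilpda (log2 difference of 8.30, SE 0.76, adjusted p = 2.99e-07). Plin2, which coats lipid droplets, had 657, 1215, 805 and 1653 CPM in liver and 244, 179, 148 and 172 CPM in sham blood (log2 difference of 2.54, adjusted p = 0.000104). Among 18 genes of the hypoxia response 5 were higher and 3 lower, and among 19 glycolytic genes 4 were higher and 1 lower, with Ldha higher by a log2 difference of 0.96. The glycolytic count of 4 was 7 without sham blood replicate 1 and 2 without liver replicate 2, liver replicate 3, sham blood replicate 2 or sham blood replicate 4. For the hypoxia list, 3 were higher without liver replicate 4, and 1 was lower without liver replicate 3, liver replicate 4 or sham blood replicate 1.

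Glucocorticoid-responsive genes were split by step. In liver against sham blood 9 of 14 were higher and 1 lower, and 5 of the 14 were higher in tumor mouse blood than in sham blood. Fkbp5, a chaperone of the glucocorticoid receptor, had 204, 383, 614 and 637 CPM in liver, 329 to 745 CPM in tumor mouse blood and 115, 114, 78.6 and 90.3 CPM in sham blood, with log2 differences of 2.21 for liver over sham blood (adjusted p = 0.000195) and -0.27 for liver over tumor mouse blood. Mt1, a metallothionein, rose by 6.97 in liver and by 5.70 in tumor mouse blood over sham blood, and Klf9 by 3.73 and 3.81. Tsc22d3, also known as GILZ, was the member that fell, with 827, 1097, 1019 and 702 CPM in liver, 1794 to 2546 CPM in tumor mouse blood and 3044, 2939, 1823 and 1886 CPM in sham blood (log2 difference of -1.41, adjusted p = 0.00691). Tsc22d3 did not pass the test between tumor mouse blood and sham blood (log2 difference of -0.17, adjusted p = 0.982).

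Transcripts of the mitochondrial genome were higher in liver. Of 9 tested, 7 were higher than in sham blood and none lower, with a median log2 difference of 2.36 (2.48 with zeros set to the floor of 3 counts). In tumor mouse blood 1 of the 9 was higher than in sham blood. The summed level was 1294 to 3394 CPM in liver, 465 to 640 CPM in tumor mouse blood and 249 to 526 CPM in sham blood. The gene mt-Co1, which encodes a subunit of cytochrome oxidase, had 713, 556, 1052 and 506 CPM in liver and 102, 145, 136 and 191 CPM in sham blood (log2 difference of 2.30, adjusted p = 2.16e-06). Of 22 nuclear genes of oxidative phosphorylation 2 were higher and none lower, and DESeq2 found 9 higher. Without sham blood replicate 1, 1 was higher. The share of mitochondrial transcripts differs between the groups as given above, and its part in the other results was not tested. Of 16 cathepsins and lysosomal genes 6 were higher and none lower, led by Ctsl, a lysosomal protease, at 227, 376, 494 and 643 CPM in liver and 12.6, 20.9, 18.8 and 18.6 CPM in sham blood (log2 difference of 4.62, adjusted p = 2.23e-07).

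**Figure D4:**
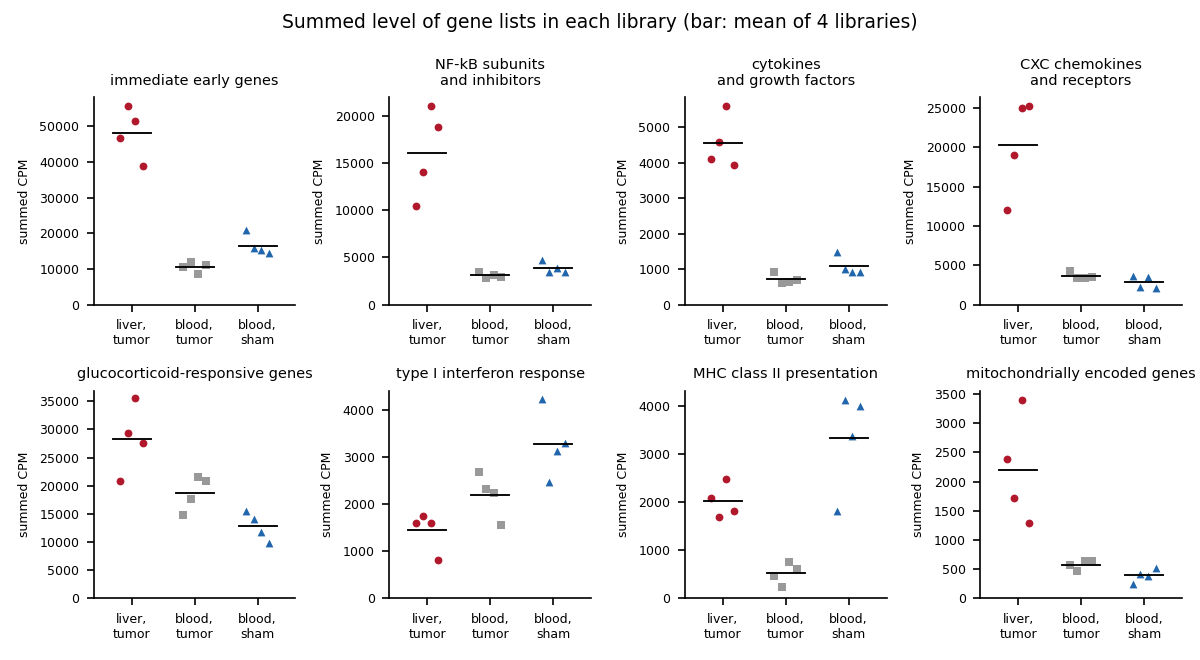
Summed CPM (y axis, linear scale) of 8 gene lists in each liver, tumor mouse blood and sham blood library, each point a library. Immediate early, NF-kB, cytokine and CXC chemokine sums are higher in all 4 liver libraries than in any blood library, and the type I interferon sum is 821 to 1742 CPM in liver against 2469 to 4226 CPM in sham blood.

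Every gene of the type I interferon response that passed the test was lower in liver. Of 22 tested, 10 were lower in liver and none higher, against 2.7% of all genes lower, with a median log2 difference of -1.10. Rsad2, the antiviral protein viperin, had 47.2, 102, 78.5 and 32.8 CPM in liver, 73.2 to 445 CPM in tumor mouse blood and 517, 352, 444 and 470 CPM in sham blood. Rsad2 was lower in each liver library than in any sham blood library (log2 difference of -2.78, SE 0.55, adjusted p = 0.00239). Cmpk2 had 46.3, 88.6, 46.3 and 12.9 CPM in liver and 274, 206, 151 and 190 CPM in sham blood (log2 difference of -2.08, adjusted p = 0.00362). Irf7, the transcription factor that amplifies the response, had 148, 148, 200 and 99.6 CPM in liver and 425, 296, 323 and 365 CPM in sham blood (log2 difference of -1.24, adjusted p = 0.00398). None of the 3 overlapped between the groups. In tumor mouse blood 6 of the 22 were already lower than in sham blood, among them Irf7 by a log2 difference of -1.15 (adjusted p = 0.0125) and Cmpk2 by -1.99 (adjusted p = 0.00915). The median log2 difference of the 22 was -0.95 for tumor mouse blood over sham blood. For liver over tumor mouse blood it was -0.092, with 1 member higher and 1 lower. The summed level was 821 to 1742 CPM in liver, 1560 to 2668 CPM in tumor mouse blood and 2469 to 4226 CPM in sham blood, the lowest liver value being that of replicate 4, without which 5 members were lower.

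The interferon gamma list was mixed, with 2 of 20 higher and 2 lower. The members that rose were the chemokines Cxcl9 and Cxcl10, of which Cxcl10 had 19.4 to 36.9 CPM in liver and 0.520 to 3.45 CPM in sham blood (log2 difference of 3.80, adjusted p = 0.00354). Irgm2, an immunity-related GTPase, and Ifngr2, a subunit of the interferon gamma receptor, fell by 2.35 and 1.06 on the log2 scale. In the Ifi200 family of DNA sensors, none of 13 passed the test in either direction with edgeR, while 3 were lower at an unadjusted p under 0.05 and 2 were lower with DESeq2.

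For MHC class II presentation, 3 of 11 members were lower in liver than in sham blood and none higher. H2-Ob, a chain that restrains peptide loading in B cells, had 8.66, 1.07, 3.15 and 4.42 CPM in liver and 36.4, 75.2, 47.6 and 66.0 CPM in sham blood (log2 difference of -3.70, adjusted p = 0.00556). The steps ran in opposite directions, as 10 of 11 were lower in tumor mouse blood than in sham blood and 6 of 11 higher in liver than in tumor mouse blood. H2-Aa had 202, 182, 256 and 176 CPM in liver, 24.9 to 79.0 CPM in tumor mouse blood and 133, 322, 321 and 376 CPM in sham blood, with overlap between liver and sham blood (adjusted p = 0.523). Of 19 genes of MHC class I presentation 5 were higher and 1 lower, H2-T23, whose call was lost without liver replicate 1, 2 or 4, without sham blood replicate 1, 3 or 4, with lane as a term and in a fit of these 8 libraries alone. H2-K1, a classical class I heavy chain, had 1476, 1715, 2252 and 1949 CPM in liver and 952, 933, 603 and 892 CPM in sham blood (log2 difference of 1.13, adjusted p = 0.000272). Counts of H2 genes are uncertain where reads could fall on a near-identical copy.

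Genes that define neutrophils moved in both directions. Of 20 identity genes 5 were higher and 2 lower, Cxcr2 among them. Without sham blood replicate 1 no identity gene was lower. The count of lower identity genes was 1 without liver replicate 3, liver replicate 4 or sham blood replicate 3. Retnlg, a resistin-like protein of neutrophils, had 3986, 6375, 6352 and 4017 CPM in liver, 7853 to 8336 CPM in tumor mouse blood and 1565, 1815, 1367 and 1425 CPM in sham blood (log2 difference of 1.75, adjusted p = 0.0126). The summed identity level was 42120 to 65080 CPM in liver, 56050 to 81260 CPM in tumor mouse blood and 40820 to 57930 CPM in sham blood, with overlap of all groups.

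Among azurophil granule proteins 4 of 15 were higher, and among secondary and tertiary granule proteins 5 of 20 were higher and 1 lower. The secondary and tertiary count of 5 was 1 without sham blood replicate 1, 2 without liver replicate 1, liver replicate 3 or sham blood replicate 4, and 3 without liver replicate 2 or sham blood replicate 3. The lower member, Ceacam1, lost its call without liver replicate 3, liver replicate 4 or sham blood replicate 2. Prtn3, which encodes proteinase 3, had 9.81, 13.5, 16.2 and 16.8 CPM in liver, 3.64 to 11.7 CPM in tumor mouse blood and 0.701, 0.523, 1.03 and 2.28 CPM in sham blood (log2 difference of 3.63, adjusted p = 0.000278). Chil3, a chitinase-like secretory protein of the immature stages, had 3636, 2258, 4865 and 5780 CPM in liver, 535 to 5982 CPM in tumor mouse blood and 196, 828, 413 and 282 CPM in sham blood (log2 difference of 3.27, adjusted p = 0.00157). Kit, the stem cell factor receptor, had 96.5, 34.4, 50.8 and 55.5 CPM in liver, 74.3 to 118 CPM in tumor mouse blood and 0.927, 1.38, 12.2 and 1.97 CPM in sham blood. Every liver library exceeded every sham blood library for Kit (log2 difference of 3.84, adjusted p = 0.000429). Neither Chil3 nor Kit passed the test between liver and tumor mouse blood.

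Of 18 transcription factors of granulopoiesis 4 were higher and 4 lower. The number lower was 2 without liver replicate 3 or liver replicate 4. Cebpb, which serves emergency granulopoiesis, had 4124, 5558, 6638 and 4745 CPM in liver, 1162 to 1671 CPM in tumor mouse blood and 1733, 1551, 1471 and 1085 CPM in sham blood (log2 difference of 1.85, adjusted p = 1.77e-05). Bhlhe40, a stress-responsive repressor, rose by 4.15 (adjusted p = 4.35e-07) with 217, 380, 693 and 798 CPM in liver and 25.4 to 35.8 CPM in sham blood. Of 18 Bcl2 family and cell death genes 7 were higher and 3 lower, and the number lower was 1 without liver replicate 2, liver replicate 4 or sham blood replicate 3. The survival gene Bcl2a1b, a near-identical copy of Bcl2a1a and Bcl2a1d and so uncertain as a single gene, rose by 2.96, and the pro-death gene Pmaip1 also rose, by 1.24.

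Adhesion and selectin genes were split, with 3 of 18 higher and 3 lower, and 1 lower without sham blood replicate 1. Jaml, a junctional adhesion molecule of leukocytes, fell to 151, 215, 158 and 104 CPM in liver, against 1059, 759, 730 and 575 CPM in sham blood (log2 difference of -2.31, adjusted p = 0.000429). Icam1, an endothelial and leukocyte adhesion molecule, rose by 2.61. In the list of NADPH oxidase and NET formation, which serve the oxidative burst and the release of chromatin traps, none of 15 was higher and 2 were lower, Padi4, which citrullinates histones, and the kinase Prkcd. The Padi4 call was lost, leaving 1 lower, without liver replicate 1, 3 or 4 or sham blood replicate 2, and it was also lost without sham blood replicate 1. Other lists held few changes, with 1 of 20 cell cycle genes, 3 of 21 ribosomal protein genes and 2 of 16 heat shock chaperones higher and none of these lower. The cell cycle count was 3 without liver replicate 1, the ribosomal count 1 without liver replicate 3 or sham blood replicate 1, and the heat shock count 0 without liver replicate 3, liver replicate 4, sham blood replicate 2 or sham blood replicate 4 and 4 without sham blood replicate 1. Over the 39 lists of neutrophil biology, 613 genes were tested, 166 were higher and 50 lower, and the median log2 difference was 0.43.

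The largest falls were genes of red blood cells and of B cells. Bpgm, the enzyme that makes the allosteric effector of hemoglobin (chr6:34476207-34505613), had 13.9, 6.38, 8.27 and 9.34 CPM in liver, 111 to 1344 CPM in tumor mouse blood and 477, 568, 632 and 647 CPM in sham blood. Bpgm stayed below every sham blood library in all liver libraries (log2 difference of -5.94, SE 0.51, adjusted p = 1.52e-07). Hba-a1, an alpha globin gene, had 67.4, 60.6, 73.7 and 123 CPM in liver and 3230, 4251, 4214 and 5508 CPM in sham blood (log2 difference of -5.73, adjusted p = 0.000109), a value that is uncertain as a single gene because Hba-a2 is nearly identical to it. Alas2, the erythroid enzyme of heme synthesis, and Slc4a1 fell by 6.22 and 6.29 on the log2 scale. None of these passed the test between tumor mouse blood and sham blood, for Bpgm with an adjusted p of 1.

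Of 11 tested erythroid markers 9 were lower and 1, the transferrin receptor Tfrc, was higher (a call lost without liver replicate 2, 3 or 4 or without sham blood replicate 2, 3 or 4, and with lane as a term), with summed levels of 242 to 462 CPM in liver, 5377 to 68280 CPM in tumor mouse blood and 11270 to 20250 CPM in sham blood. Epb42 had no count in any liver library and was at least 299-fold lower there. Of 15 B cell markers 10 were lower and none higher, with summed levels of 70.5 to 382 CPM in liver, 97.0 to 171 CPM in tumor mouse blood and 1343 to 2565 CPM in sham blood. Without liver replicate 3, or without liver replicate 4, 5 of the B cell markers were lower, and over all alternative fits the number was 5 to 15. Ebf1, a transcription factor that commits cells to the B lineage, had 2.03, 0.312, 0.437 and 0.970 CPM in liver, 0.669 to 2.73 CPM in tumor mouse blood and 18.1, 46.6, 15.6 and 29.3 CPM in sham blood. Ebf1 was lower in each liver library than in any sham blood library (log2 difference of -4.86, SE 1.03, adjusted p = 0.00438), and was already lower in tumor mouse blood (log2 difference of -4.29, adjusted p = 0.0165). H2-Ob, H2-Oa and H2-DMb2, the MHC class II members that fell, are genes that B cells express, and the part of B cell transcripts in those falls was not tested. The H2-Oa call was lost without liver replicate 2, 3 or 4, without sham blood replicate 2, 3 or 4 and with lane as a term.

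Some of the largest falls rested on few libraries. Fhl1 (log2 difference of -4.98, adjusted p = 0.0327) and Nrgn (log2 difference of -4.48, adjusted p = 0.0225) lost their calls without liver replicate 1, 2 or 4 or without sham blood replicate 3. Nrgn had 375 CPM in sham blood replicate 3 and 47.6 to 74.8 CPM in the other sham blood libraries, and without replicate 3 its log2 difference was -3.26 (adjusted p = 0.118). The same library carried the highest sum of platelet markers, and the count of platelet markers lower in liver, 5 of 12, was 0 without it. That count was 3 without liver replicate 1 or 2 or with a replicate block, and 2 without liver replicate 4. It was 9 with DESeq2 and in a fit of the compared groups alone. Platelet marker sums were 58.4 to 141 CPM in liver, 122 to 737 CPM in tumor mouse blood and 178 to 1497 CPM in sham blood.

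Markers of liver cells were present in the liver libraries at low levels beside the neutrophil genes. Of 18 hepatocyte markers 7 were higher and none lower (4 higher without liver replicate 4), with summed levels of 90.7 to 168 CPM in liver, 11.3 to 25.4 CPM in tumor mouse blood and 11.7 to 34.9 CPM in sham blood. Alb, the plasma protein albumin, had 10.2, 16.4, 7.52 and 23.2 CPM in liver and at most 0.268 CPM in sham blood (log2 difference of 7.20, adjusted p = 0.0417), a call that was lost when any single library of either group was left out. The other markers taken to define hepatocytes, Apoa1 and Ttr, did not pass the test (adjusted p = 0.296 and 0.446), and Ttr overlapped between the groups. Hpx, Mat1a, Serpina3k, Fga and Fgg rose beside this sum, and the part of hepatocyte RNA in these rises was not tested. Liver replicate 4 had the highest hepatocyte sum, at 168 CPM, and the highest levels of Mat1a, Serpina3k, Fga and Fgg, while Hpx was highest in liver replicate 1.

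Of 16 markers of Kupffer cells and macrophages 8 were higher and 1 lower. C1qb, a complement subunit of macrophages, had 146 to 542 CPM in liver, 6.70 to 79.0 CPM in tumor mouse blood and 2.45 to 8.06 CPM in sham blood (log2 difference of 6.25, adjusted p = 3.39e-06), and Clec4f, which marks Kupffer cells, had 24.4, 3.77, 1.33 and 1.19 CPM in liver and no count in blood of either group, at least 548-fold above sham blood. Adgre1, which encodes the macrophage antigen F4/80, was at 90.0 to 100 CPM in liver and 113 to 151 CPM in sham blood. Adgre1 did not pass the test (adjusted p = 0.517). Vsig4, another marker taken to define these cells, did not pass either (log2 difference of 3.50, adjusted p = 0.157), though the groups did not overlap. Summed macrophage markers were lower in liver, at 2447 to 2965 CPM, than in sham blood, at 3397 to 3989 CPM, and the list includes the iron exporter Slc40a1, at 576 to 1560 CPM in liver and 2356 to 2856 CPM in sham blood. Chemokine and cytokine genes that rose, such as Ccl2, Tnf and Il1a, are also expressed by macrophages, and the part of macrophage RNA in their rise was not tested.

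The list of cholangiocyte and tumor epithelium markers had 8 of 13 higher and none lower, with summed levels of 434 to 1111 CPM in liver, 190 to 318 CPM in tumor mouse blood and 167 to 268 CPM in sham blood. Krt19, a duct keratin, had 33.8, 7.47, 14.2 and 135 CPM in liver, 0 to 0.0436 CPM in tumor mouse blood and 0.0226, 1.10, 0.0195 and 0.0575 CPM in sham blood (log2 difference of 7.27, adjusted p = 0.000337). Krt8 also passed the test (adjusted p = 0.00153), and Epcam did not (adjusted p = 0.0755). For the sinusoidal endothelium 5 of 15 markers were higher (2 without sham blood replicate 1, 3 without sham blood replicate 2 or replicate 4), with 269 to 457 CPM in liver and 98.9 to 126 CPM in sham blood. Stab2, Lyve1 and Clec4g, the markers taken to define this endothelium, did not overlap between liver and sham blood. None of them passed the test (adjusted p = 0.148, 0.0846 and 0.297). For stellate cells and fibroblasts 4 of 14 were higher and 1 lower (2 higher without liver replicate 3, sham blood replicate 1 or sham blood replicate 4), with 47.4 to 108 CPM in liver and 93.3 to 167 CPM in sham blood. The member that was lower was Acta2. Of the markers taken to define these cells, Dcn had 0.440 to 11.1 CPM in liver and at most 0.0195 CPM in sham blood. Dcn passed the test (log2 difference of 9.70, adjusted p = 0.000519). Col1a1 also passed (log2 difference of 5.22, adjusted p = 0.031), but not without liver replicate 3 or sham blood replicate 1, 3 or 4, nor with a replicate block. Lrat, which defines stellate cells, had no count in sham blood and in liver had counts in replicate 3 alone.

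Monocyte markers were split, with 3 of 15 higher and 5 lower, and 3 lower without liver replicate 3, liver replicate 4 or sham blood replicate 3. The monocyte sum was 6023 to 7993 CPM in liver, 1631 to 2312 CPM in tumor mouse blood and 2864 to 3577 CPM in sham blood. Nr4a1 made up a large part of it in liver and a small part in blood of either group. The higher sum in liver is thus not a rise of the markers as a set, whose median log2 difference was -0.41. Cd300e and Treml4, which mark patrolling monocytes, fell by 3.87 and 1.64 on the log2 scale. None of 14 T cell markers, 12 NK cell markers or 12 dendritic cell markers passed the test in either direction with edgeR, while in each of these lists 2 were lower at an unadjusted p under 0.05 and 1 was lower with DESeq2. Of 12 markers of eosinophils, basophils and mast cells 1 was higher, Siglecf, by a log2 difference of 1.76.

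**Figure D5:**
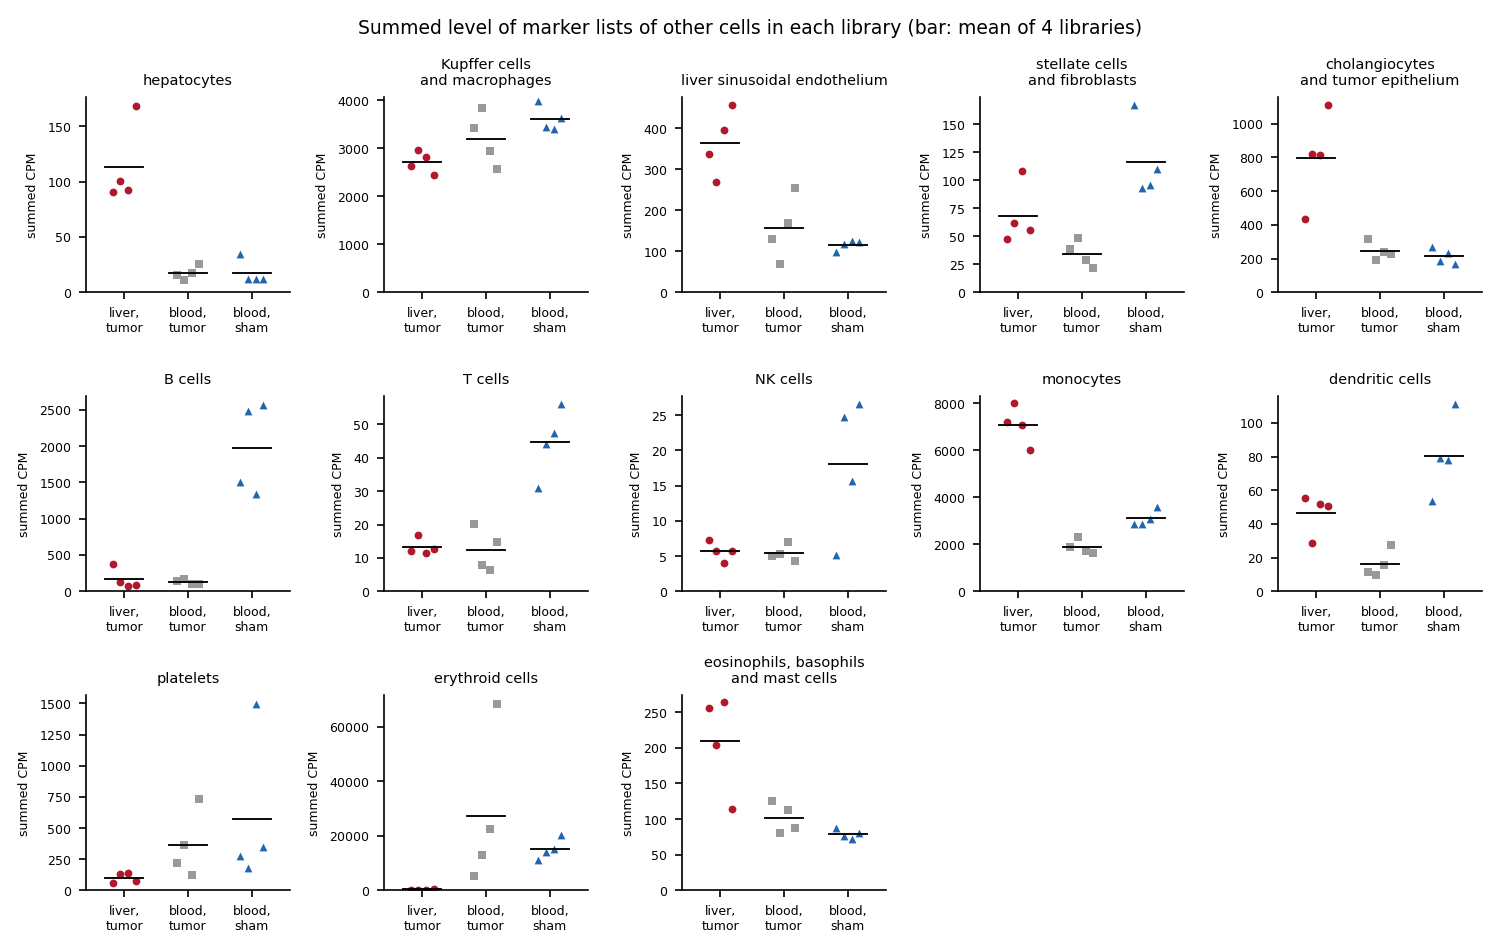
Summed CPM (y axis, linear scale) of 13 marker lists of other cell types in each liver, tumor mouse blood and sham blood library. Hepatocyte sums are 90.7 to 168 CPM in liver against 11.7 to 34.9 CPM in sham blood, and erythroid sums are 242 to 462 CPM in liver against 11270 to 20250 CPM in sham blood.

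Within sequencing lanes, 3 held a liver library and a sham blood library each. The genes were called from these same libraries, so their direction within a lane was largely set by that choice and is given as a description. In these single pairs 616, 674 and 653 of the 680 genes called higher had more CPM in the liver library, and 207, 204 and 206 of the 208 called lower had less. The median log2 difference of the genes called higher was 3.89, 5.15 and 3.98 in the 3 pairs, and that of the genes called lower was -3.27, -3.33 and -2.81. Of 11581 genes averaging 1 CPM or more, 49.6%, 53.5% and 52.1% had more CPM in the liver library of the pair. With 1 library of each group per lane, these are values with no test.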

How the data were processed

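Neutrophils sorted by CD11b and Ly6G were profiled by single-read RNA sequencing with 4 libraries per lane. The authors deposited raw counts per gene for 20 libraries, with mm10 and DESeq2 named in their processing notes. The sources used here name neither aligner nor counter (both not given). A deposited table of log2 (rlog) values was not used. Of 51918 entries, 51912 genes remained after 6 repeats were dropped, 51719 of them were listed in GENCODE M21, and the count columns matched the library titles with 0 columns of no sample. SMART-Seq does not mark strand, so overlapping and antisense genes are uncertain, as are near-identical copies such as the globin, Bcl2a1 and H2 genes.

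Counts were tested with edgeR 4.0.16 (quasi-likelihood, TMM, R 4.3.3) in 1 model over all 20 libraries and the 28762 genes with at least 1 count, with 15 residual degrees of freedom and Benjamini-Hochberg adjustment over all genes. A gene was called at an adjusted p under 0.05 and a log2 difference of at least 2 in size. Gene lists were counted at the adjusted p with no limit on size, and the loss of a call by a named gene was judged likewise. CPM were scaled by TMM, and intervals and bounds (a floor of 3 counts over a group) reflect counting error alone, since no molecular identifiers tell PCR copies apart. The depth of 48336758 to 54094891 counts in the 8 libraries makes 1 count about 0.02 CPM.

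Genes were named by a rule. After 38 predicted genes were left out, the 15 largest rises and the 15 largest falls were taken from the called genes that reached a mean of 10 CPM in whichever group was higher and separated the 4 liver from the 4 sham blood libraries fully. To these were added up to 4 members of each of 52 lists (those past the adjusted p with the highest mean CPM), the sorted and defining markers, and further list members with their values. Some genes taken by the rule, and some alleles, are not reported here. The members and lists were chosen with earlier results of these data known. On counts drawn from a model with known changes for this comparison (27739 genes, 50 genes per fold), the calls recovered 35 of the 8-fold and 44 of the 32-fold increases, 36 of the 8-fold and 42 of the 32-fold decreases, and 2 of 27539 unchanged genes were called. The changed genes were drawn only from those with at least 1 CPM over all 20 libraries pooled. Recovery of rarer genes was not measured, and the model gave all groups but liver equal means. The unchanged genes were of any level and came from the kind of model that the test assumes. Their count therefore does not give the rate of false calls in the libraries themselves.

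Alternatives were DESeq2 1.42.0, its size factors in edgeR, filterByExpr, the compared groups alone, a replicate block, lane as a term, each library left out in turn and a log2 limit of 1.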

Additional observations from a re-analysis of the deposited data

Results flagged for a closer look

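In 15 of 166 tests of the highest or lowest library of a group of 4 against the others, by Dixon's rule, a library stood apart. Chance does so in about 1 in 20 groups.

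Liver replicate 4 stood apart in 6 of these. Its type I interferon sum was 821.3 CPM, against 1603 to 1742 CPM in the other liver libraries. Its cell cycle sum was 317.3 CPM, against 105.8 to 111.3 CPM. Its hepatocyte marker sum was 168.5 CPM (others 90.74 to 100.5 CPM) and its erythroid marker sum 461.5 CPM (others 241.5 to 278.2 CPM). Serpina3k had 25.44 CPM there (others 5.363 to 8.292 CPM) and Alas2 21.22 CPM (others 12.39 to 12.7 CPM). Liver replicate 2 was low in dendritic cell markers, at 28.64 CPM against 50.9 to 55.12 CPM, and in Lipg, at 23.65 CPM against 101.1 to 114.6 CPM.

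Among the sham blood libraries, replicate 2 had a neutrophil precursor sum of 11540 CPM, against 2168 to 2533 CPM in the others, and a cell cycle sum of 111.2 CPM, against 77.54 to 82.27 CPM. It also held the only count of Fgg in sham blood (0.01938 CPM), and replicate 1 the only count of Fga (0.0226 CPM). Replicate 1 was high in hepatocyte markers, at 34.87 CPM against 11.73 to 12.1 CPM. Replicate 3 was high in platelet markers, at 1497 CPM against 177.7 to 350.3 CPM, and in Nrgn, at 375 CPM against 47.6 to 74.76 CPM. The cause of these values was not tested.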

How the results depend on the processing

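For liver against sham blood, the 680 genes called higher and 208 lower became 1153 and 524 with DESeq2 and 1023 and 543 with a log2 limit of 1, and in a fit of the compared groups alone 382 were lower. Leaving out 1 library gave 528 to 715 higher and 122 to 202 lower. At the adjusted p alone, the 1241 higher and 776 lower were 2181 and 1763 with DESeq2, and 885 to 1172 and 437 to 659 with 1 library left out. For liver against tumor mouse blood, DESeq2 called 1480 higher and 230 lower, and a log2 limit of 1 gave 194 lower. At the adjusted p, DESeq2 gave 2343 higher and 1209 lower, filterByExpr 560 lower and lane as a term 212 lower, and with 1 library left out 747 to 1259 were higher and 207 to 392 lower. For tumor mouse blood against sham blood, DESeq2 called 367 higher and 741 lower and a log2 limit of 1 gave 329 and 437. At the adjusted p, DESeq2 gave 1104 higher and 1438 lower, and lane as a term 287 higher. The cause of these differences was not tested, except that a log2 limit of 1 admits more genes by construction.

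Of the genes called higher, 672 were also called by DESeq2, and of those called lower 206. Size factors of DESeq2 in edgeR called 668 and 214, filterByExpr 786 and 284, and lane as a term 697 and 207. The replicate block called 608 and 213. Liver and sham blood libraries of the same number did not deviate together (correlations of -0.122, -0.048, 0.017 and 0.002 over 11581 genes). Those of liver and tumor mouse blood were 0.073, 0.102, 0.056 and 0.189 over 11277 genes, and each liver library correlated best with the blood library of its own number, a hint from the data and not from the design. A replicate block in a fit of liver and tumor mouse blood alone, chosen after seeing the data, called 614 higher and 85 lower, and gave 1155 higher and 796 lower at the adjusted p, against 1146 and 345. Without the block, these libraries alone gave 470 lower. Of 206 genes past the adjusted p among those taken by the naming rule or added to it, none turned direction under the alternative fits, and of 32 others Ccr2, Flt3, Ly6c2 and Pf4 did. The 206 were picked from these same libraries, which the alternative fits largely reuse. Their direction was therefore largely set by that choice and is given as a description. Depth was similar in all 8 libraries. The limits that remain are the size of each group, the lack of a liver of sham mice in this comparison, and marker transcripts of other cells in both tissues.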
